A study of Mus musculus with 32 samples.

Results

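The olfactory receptor genes of mouse chromosome 7 were examined for trimethylation of histone H3 at lysine 9 (H3K9me3) in male germ cells. Members were the protein-coding genes of chromosome 7 in the RefSeq gene table of GRCm38 whose symbol begins with Olfr, or with Or followed by a digit. The rule found 239 genes among 21887 protein-coding genes of chromosomes 1 to 19, X and Y, and used no value from the H3K9me3 lists. The cells came from the testes of male mice carrying Mvh-Venus, a fluorescent reporter that marks germ cells, and all groups carried it. One set of animals was Morc1 (+/-) and is called het here, and the other was Morc1 (-/-) and is called KO. Samples of both were taken before birth (E13.5 and E16.5, in days of embryonic development) and after it (P0 and P3, in days of postnatal life). Morc1 encodes an ATPase with a role in silencing in the male germ line. The het animals themselves carry 1 mutant allele, so no wild-type group entered. No value checks the knockout or the labelled cell type, because the lists hold positions and no expression.

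Olfactory receptors are the odorant receptors of olfactory sensory neurons, each of which normally expresses a single allele of a single receptor gene. The genes lie in arrays, and each has a coding sequence in 1 exon. Class I receptors form an older family that in the mouse lies in a large array on chromosome 7 around the beta-globin genes, and class II receptors make up the rest. In olfactory neurons the silent receptor genes carry H3K9me3, a mark of heterochromatin. Germ cells at these stages are gonocytes, which pass through a period of low DNA methylation before silencing marks are set up again.

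Each of the 8 groups was represented by 1 list of H3K9me3 peaks deposited by the authors, from 2 H3K9me3 samples per group, and a base pair in a peak is called here a called base pair. The lists give no peak height and no replicate values. No spread between replicates, no interval and no p-value could be given for any called length, and the comparisons below describe the lists. The lists held 52628 to 93523 peaks on the chromosomes used, covering 166.1 to 339.5 Mb. Read depth was unknown, and called length depends on it. Fewer cells with the mark and a weaker mark in each cell cannot be told apart in such bulk lists. Of 5 germ cell marker genes, 1 to 3 had a called base pair in the gene or its 5 kb flanks, depending on the list. This was so for 1 to 2 of 3 Sertoli cell markers and for 1 of 3 Leydig cell markers. Over all protein-coding genes the share was 38.4% to 51.6%. With so few genes, the marker counts are not read as a result.

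The members had a median gene length of 954 bp, and 207 of them spanned at most 2 kb. The longest, Olfr687, spanned 48.7 kb. By their older MOR family numbers, 123 members were class I and 113 were class II, and 3 had no such number. They fell into 8 runs with gaps of at most 500 kb between neighbouring members, numbered from the centromeric end and called clusters. Cluster 5 held 126 members, from Olfr543 to Olfr692 (chr7:102476773-105369317), and 121 of the 123 class I genes. Cluster 7 held 42 members (Olfr467 to Olfr519, chr7:107814586-108894405). Cluster 6 held 25 (Olfr693 to Olfr716), cluster 8 held 19 (Olfr522 to Olfr541), cluster 3 held 15 (Olfr310 to Olfr292) and cluster 1 held 8 (Olfr1344 to Olfr1350). Clusters 2 and 4 were pairs, Olfr291 with Olfr290 and Olfr520 with Olfr521.

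RefSeq start regions, from 250 bases before to 50 after the annotated start on GRCm38.p6, were matched for 209 of the 239 members. The 6 printed here stand for the patterns described later. Those of Olfr623 (chr7:103661269-103661568, minus strand) and Olfr504 (chr7:108565744-108566043, minus strand) were called in full in all 8 lists. That of Olfr502 (chr7:108523899-108524198, minus strand) was called only in the het lists of P0 and P3, and that of Olfr641 (chr7:104039548-104039847, plus strand) in both genotypes at E16.5 and only in het at P0 and P3. Those of Olfr558 (chr7:102702073-102702372, plus strand) and Olfr17 (chr7:107097217-107097516, plus strand) were called in no list. Capitals mark matches on either strand to TAATNA, a core that homeodomain proteins such as Lhx2 and Emx2 bind. CCCNNGGG, the core of the Olf-1 site that EBF proteins bind, was also searched and had no match in these 6 windows.
Olfr623: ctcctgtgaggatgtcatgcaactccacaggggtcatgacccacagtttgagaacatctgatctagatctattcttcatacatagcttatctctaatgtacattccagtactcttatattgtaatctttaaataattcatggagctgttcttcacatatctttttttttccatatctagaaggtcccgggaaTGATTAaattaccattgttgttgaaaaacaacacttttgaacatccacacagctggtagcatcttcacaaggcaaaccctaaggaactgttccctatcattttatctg
Olfr504: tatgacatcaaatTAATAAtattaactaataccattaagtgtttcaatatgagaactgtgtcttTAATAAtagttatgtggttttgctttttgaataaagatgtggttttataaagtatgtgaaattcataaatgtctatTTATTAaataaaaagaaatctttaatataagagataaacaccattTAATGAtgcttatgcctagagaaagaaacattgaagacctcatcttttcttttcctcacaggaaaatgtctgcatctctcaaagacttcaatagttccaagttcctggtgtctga
Olfr502: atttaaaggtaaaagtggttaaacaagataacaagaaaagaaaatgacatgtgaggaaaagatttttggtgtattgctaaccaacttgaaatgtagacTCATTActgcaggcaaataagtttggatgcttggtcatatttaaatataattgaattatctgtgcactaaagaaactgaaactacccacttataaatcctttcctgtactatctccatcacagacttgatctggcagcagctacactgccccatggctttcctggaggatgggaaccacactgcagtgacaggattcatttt
Olfr641: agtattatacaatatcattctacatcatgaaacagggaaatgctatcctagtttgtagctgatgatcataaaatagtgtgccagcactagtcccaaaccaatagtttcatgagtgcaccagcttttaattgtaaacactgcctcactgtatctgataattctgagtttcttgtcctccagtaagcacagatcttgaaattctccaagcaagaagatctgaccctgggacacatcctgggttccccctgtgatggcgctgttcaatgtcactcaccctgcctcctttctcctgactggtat
Olfr558: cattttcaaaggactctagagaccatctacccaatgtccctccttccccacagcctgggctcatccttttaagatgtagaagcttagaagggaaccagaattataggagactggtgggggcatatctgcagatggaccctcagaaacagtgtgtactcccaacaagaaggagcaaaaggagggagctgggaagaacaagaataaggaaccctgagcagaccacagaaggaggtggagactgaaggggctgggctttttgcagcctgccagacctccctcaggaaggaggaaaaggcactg
Olfr17: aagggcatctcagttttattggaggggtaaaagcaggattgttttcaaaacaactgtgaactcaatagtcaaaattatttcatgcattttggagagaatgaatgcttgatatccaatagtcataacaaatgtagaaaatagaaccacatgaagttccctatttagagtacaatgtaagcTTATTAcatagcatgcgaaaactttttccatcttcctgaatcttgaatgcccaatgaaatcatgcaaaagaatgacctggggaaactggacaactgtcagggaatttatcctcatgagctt

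TAATNA was present in 131 of the 209 member windows (62.7%) and in 22.6% of 21263 windows of all protein-coding promoters. CCCNNGGG was present in 9 member windows (4.31%) and in 15.6% of all promoter windows. The member windows had a median GC content of 37.0%, against 56.3% over all promoters, and base composition bears on how often either motif occurs. No CpG was found in 34.0% of member windows and in 4.63% of all promoter windows. Olfactory receptor genes of other chromosomes (739 windows) were close to the members, with TAATNA in 66.7% and CCCNNGGG in 2.71%. Their median GC content was 34.7%, and 33.2% of their windows held no CpG. These traits were thus not particular to chromosome 7. Of the 60 member windows called in at least 1 list, 36 held TAATNA (60.0%). Of the 149 called in no list, 95 did (63.8%). The share holding the motif was thus similar whether or not the start region carried called H3K9me3 in these germ cells. Windows without a CpG made up 45.0% of the called windows and 29.5% of those never called.

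H3K9me3 over the members was sparse at E13.5 and had nearly reached its later extent by E16.5. The E13.5 lists called 4.92% of the base pairs of member gene bodies in het and 6.75% in KO. In the E16.5 lists the shares were 17.0% and 15.2%, and they stayed between 17.3% and 17.9% in the 4 lists of P0 and P3. The 5 kb flanks followed the same course, with 6.56% in het and 7.55% in KO at E13.5, then 18.2% and 16.6% at E16.5. They reached 20.2% in het and 19.6% in KO at P0, and were 18.4% and 19.1% at P3. Over bodies and flanks together, E16.5 exceeded E13.5 in called length by a factor of 2.86 in het and of 2.21 in KO.

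**Figure D1:**
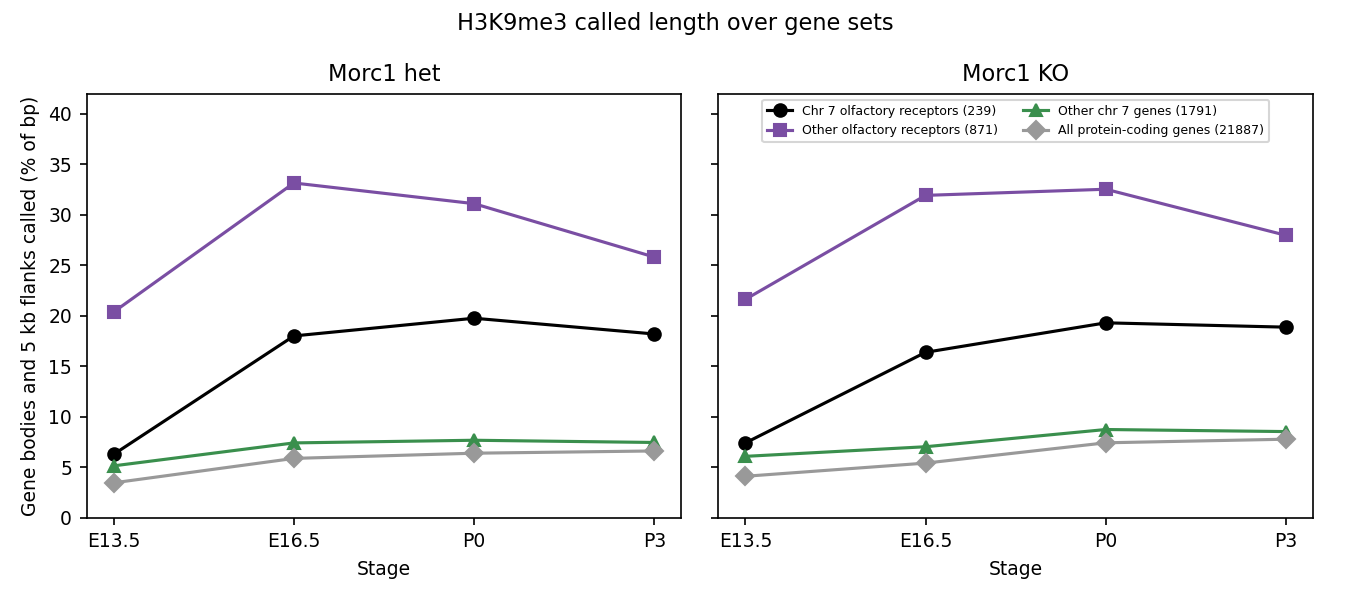
Percent of base pairs in gene bodies and 5 kb flanks that were called, by stage, in the het lists (left) and KO lists (right). Each point is 1 list, with no error to show. The chromosome 7 olfactory receptor genes lie close to other chromosome 7 genes at E13.5 and above them from E16.5 on, and below the olfactory receptor genes of other chromosomes throughout.

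Olfactory receptor genes elsewhere in the genome had more called H3K9me3, and those of chromosome 2 were the nearer to the members. The 871 olfactory receptor genes on other chromosomes had 21.0% of their gene bodies called in het at E13.5, so the chromosome 7 share was 0.234 of theirs. By P3 the share on chromosome 7 was 0.670 of theirs in het and 0.637 in KO, as the level elsewhere was 33.8% at E16.5 and 25.8% at P3 in het. Among the 871, the 287 on chromosome 2 had 10.5% of their bodies called in the E13.5 het list, 27.0% in the E16.5 het list and 16.7% in the P3 het list, where the members had 17.3%. A low start and a higher E16.5 level were thus also seen on chromosome 2. Against the 1791 other protein-coding genes of chromosome 7, the member body share was 1.10 times as large in het at E13.5 and 2.53 times at E16.5. Olfactory receptor pseudogenes of chromosome 7, 55 in the table and lying among the members, had 14.1% of their bodies called in het at E13.5 and 31.6% at E16.5. No test of these differences was possible with 1 list per group.

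The number of members with any called base pair told the same course. Within the gene body, 20 members were called in the E13.5 het list (29.5% of all protein-coding genes were) and 24 in the E13.5 KO list (32.9%). At E16.5 the numbers were 54 in het (31.8%) and 49 in KO (31%), and at P0 they were 52 in het (33.9%) and 52 in KO (38.8%). At P3 they were 54 in het (37.5%) and 53 in KO (40.1%). In every list these were a smaller share of the members than of all genes, which are longer on the whole. With the 5 kb flanks included, 63 members were called in het at E13.5 (38.4% of all genes) and 66 in KO (43%). The E16.5 lists had 126 in het (42.8%) and 115 in KO (41.8%). At P0 the numbers were 143 (46.6%) and 136 (51.6%), and at P3 they were 133 (48.8%) and 130 (51.3%). As shares of the members, these were 26.4% and 27.6% at E13.5, below those of all genes, and 48.1% to 59.8% later, above them in each list. From E13.5 to E16.5, 66 members were newly called in het, which is 27.6% of members against 10.8% of all genes, and 3 were no longer called (6.36% of all genes). In KO, 50 were newly called (20.9% against 8.16%) and 1 was no longer called (9.34% of all genes). From E16.5 to P0, 26 members were newly called in het (9.71% of all genes) and 32 in KO (13.4%), while 9 in het (5.91%) and 11 in KO (3.63%) no longer were. From P0 to P3, 6 were newly called in het (7.91%) and 7 in KO (6.28%), and 16 in het (5.73%) and 13 in KO (6.54%) no longer were.

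Called H3K9me3 was not centred on the genes. In the E13.5 het list, 3.84% of base pairs within 1 kb of the 209 known starts were called, against 7.07% at 20 to 50 kb. At E16.5 the 2 values were 16.1% and 16.7% in het and 15.3% and 15.4% in KO. At P0 the starts were again lower than their surroundings, at 15.3% against 21.7% in het and 15.7% against 19.4% in KO. At P3 the values were 16.0% against 18.3% in het and 16.2% against 17.1% in KO. As a ratio of the starts to 20 to 50 kb, the members had 0.544 in E13.5 het and 0.704 in P0 het. All protein-coding genes had 0.771 and 0.514 in these lists, and olfactory receptor genes of other chromosomes 1.06 and 0.969. A lower share at the starts was thus not particular to the members. Start regions of members were called in 8 cases in het at E13.5 (4.62% of all 17492 genes with such a window) and in 13 in KO (6.13%). At E16.5 they were called in 36 cases in het (5.05%) and 34 in KO (4.78%), at P0 in 37 (5.16%) and 36 (5.77%), and at P3 in 36 (4.64%) and 37 (5.48%). From E16.5 on, 16.3% to 17.7% of member start regions were thus called, above the share over all genes in each list.

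**Figure D2:**
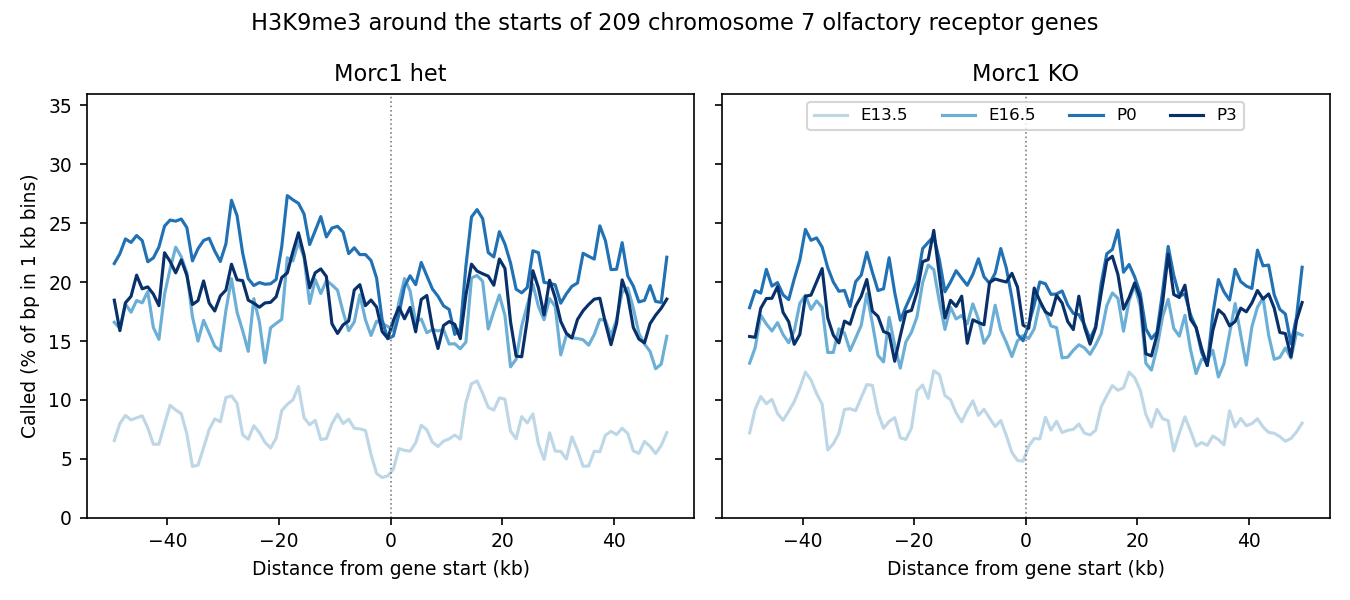
Percent of base pairs called in 1 kb bins from 50 kb before to 50 kb after the starts of 209 members, in het (left) and KO (right), with 1 line per stage. The E13.5 lines dip at the start (3.84% within 1 kb in het), and the later lines run mostly between 12% and 27% with no peak at the start.

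Individual members ranged from called over the whole 10.9 kb window in every list to never called. Of the 239 members, 53 had a called base pair in the body or flanks in all 8 lists (26% of all genes did) and 73 in none (32%). Gene bodies were called in all 8 lists for 14 members (19.2% of all genes) and in none for 154 (45.8%). Olfr670, a class I gene at chr7:104959792-104960730, had 10.939 kb called in each of the 8 lists, which is its entire window. It lay inside the longest cluster peak of the E13.5 het list, chr7:104949638-104966363, of 16.7 kb. Olfr592, another class I gene (chr7:103186603-103187541), had 7.774 kb called in het and 9.043 kb in KO in the E13.5 lists and its entire window of 10.939 kb in the other 6 lists. A peak of 23.9 kb over Olfr592 and its neighbour Olfr591 (chr7:103171531-103195406) was the longest cluster peak of the E16.5 het list.

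Olfr623 and Olfr504, whose start regions are shown above, were called early and stayed so. Olfr623 (class I) had 6.87 kb in het and 6.97 kb in KO in the E13.5 lists, then 10.3 and 10.4 kb in the E16.5 lists, 10.4 and 10.4 kb in the P0 lists, and 9.47 and 10.6 kb in the P3 lists. Olfr504, 1 of only 2 members of cluster 7 with a class I MOR number, had 8.997 and 9.041 kb in the E13.5 lists. It had 8.73 and 8.79 kb in the E16.5 lists, 9.31 and 9.02 kb in the P0 lists, and 5.80 and 8.33 kb in the P3 lists. In both genes the 2 genotypes were close in the first 6 lists, and het was lower at P3. Olfr512 (class II, cluster 7) was built up later, with 1.21 and 2.61 kb in the E13.5 lists, 6.26 and 6.25 kb in the E16.5 lists, 10.98 and 7.56 kb in the P0 lists, and 10.98 and 9.05 kb in the P3 lists.

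Runs of neighbours called in all 8 lists, or in none, held at most 5 members. Neighbours can share a peak, and whether such runs are longer than a random order would give was not tested. The longest run of neighbours called in all 8 lists held 4 members in each of clusters 5, 6 and 7, namely Olfr669 to Olfr672 over 58.4 kb, Olfr695 to Olfr699 over 77.3 kb and Olfr504 to Olfr508 over 66.1 kb. The longest run of neighbours called in no list was 5 members at the centromeric edge of cluster 5, Olfr543 to Olfr549, over 78.5 kb. Olfr692 at the other edge of that cluster was also called in no list. Cluster 5, which has 126 of the 239 members, held 43 of the 73 members called in no list. Genes called in no list made up 30.5% of members and 32% of all genes. Class I genes were called in no list in 44 of 123 cases (35.8%) and class II genes in 28 of 113 (24.8%). Over bodies and flanks in het, 6.50% of class I and 6.18% of class II base pairs were called at E13.5. At P0 the het shares were 18.7% and 20.6%. In KO class II was the higher at both stages, with 6.89% and 7.92% at E13.5 and 17.9% and 20.5% at P0.

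None of the members picked here as known for work in other contexts had more than 2.93 kb called in any list. That value, of Olfr2, came from a list in which the median over all members was 0.270 kb. Some of the values below exceeded the member median of their list, and others did not. Olfr2 (the I7 receptor, which responds to octanal) had 0 and 1.00 kb in the E13.5 lists, 2.93 and 1.61 kb in the E16.5 lists, 0.166 and 0.154 kb in the P0 lists, and 0 and 0.391 kb in the P3 lists in het and KO. Olfr17 (the P2 receptor of axon guidance studies) was called in 1 list, with 0.442 kb in E16.5 KO. Olfr558 was called in no list. Olfr78, which is also expressed in oxygen-sensing glomus cells of the carotid body, had 1.95 kb in P0 het, 1.80 kb in P3 het and 0 in the other 6 lists. Olfr16 does not lie on chromosome 7.

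The clusters differed in level and in time course. Over all 8 cluster spans, 5.64 Mb in all, the het lists called 7.45% of base pairs at E13.5, then 17.3%, 22.3% and 18.7% at the following stages. The KO lists called 8.88%, 16.2%, 19.9% and 17.6%. The rest of chromosome 7 had 8.46% in het at E13.5 and 12.5% at P0, so the clusters lay below it at E13.5 and above it later. In cluster 5 the het lists, in order of stage, called 5.87%, 15.1%, 19.5% and 17.1% of the span, and 0.944%, 1.13%, 1.03% and 2.71% of the 500 kb on its centromeric side. On the telomeric side the 500 kb had 0.200%, 0.837%, 3.21% and 2.97%. Clusters 4, 5, 7 and 8 were above the 500 kb on both sides in all 8 lists. The other 4 clusters were not: clusters 1, 3 and 6 were below their centromeric side in all 8 lists, and cluster 2 below its telomeric side. In het at E16.5, for example, cluster 3 had 17.1% against 70.3% on its centromeric side, and cluster 2 had 46.8% against 65.4% on its telomeric side. Cluster 7 was higher, at 11.5%, 22.4%, 32.3% and 26.9% in het.

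The pair in cluster 2 and the last gene of cluster 3 were highest at E16.5 in both genotypes. Olfr290 (chr7:84915781-84916728) had 1.43 kb in het and 3.15 kb in KO in the E13.5 lists, and 10.9 kb in each genotype at E16.5. At P0 it had 1.00 kb in each genotype, and in the P3 lists het had 0.020 kb and KO 1.00 kb. Olfr291 had 2.29 and 1.65 kb in the E13.5 lists, 8.50 and 8.14 kb in the E16.5 lists, 5.06 and 5.07 kb in the P0 lists, and 2.48 and 2.55 kb in the P3 lists. Olfr292, that last gene, was not called at E13.5, had 10.8 kb in het and 5.48 kb in KO in the E16.5 lists, and had 3.99 and 4.63 kb in the P0 lists and 1.28 and 0.866 kb in the P3 lists. By a rule set after these values were seen, 8 members were at least 2-fold and 1 kb higher at E16.5 than at E13.5 and at P3 in both genotypes, which is 3.35% of members against 1.99% of all genes. The others were Olfr309, Olfr618, Olfr665, Olfr668 and Olfr700. The corresponding rule for P0 against both embryonic stages found 22 members, 9.21% against 7.05% of all genes.

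**Figure D3:**
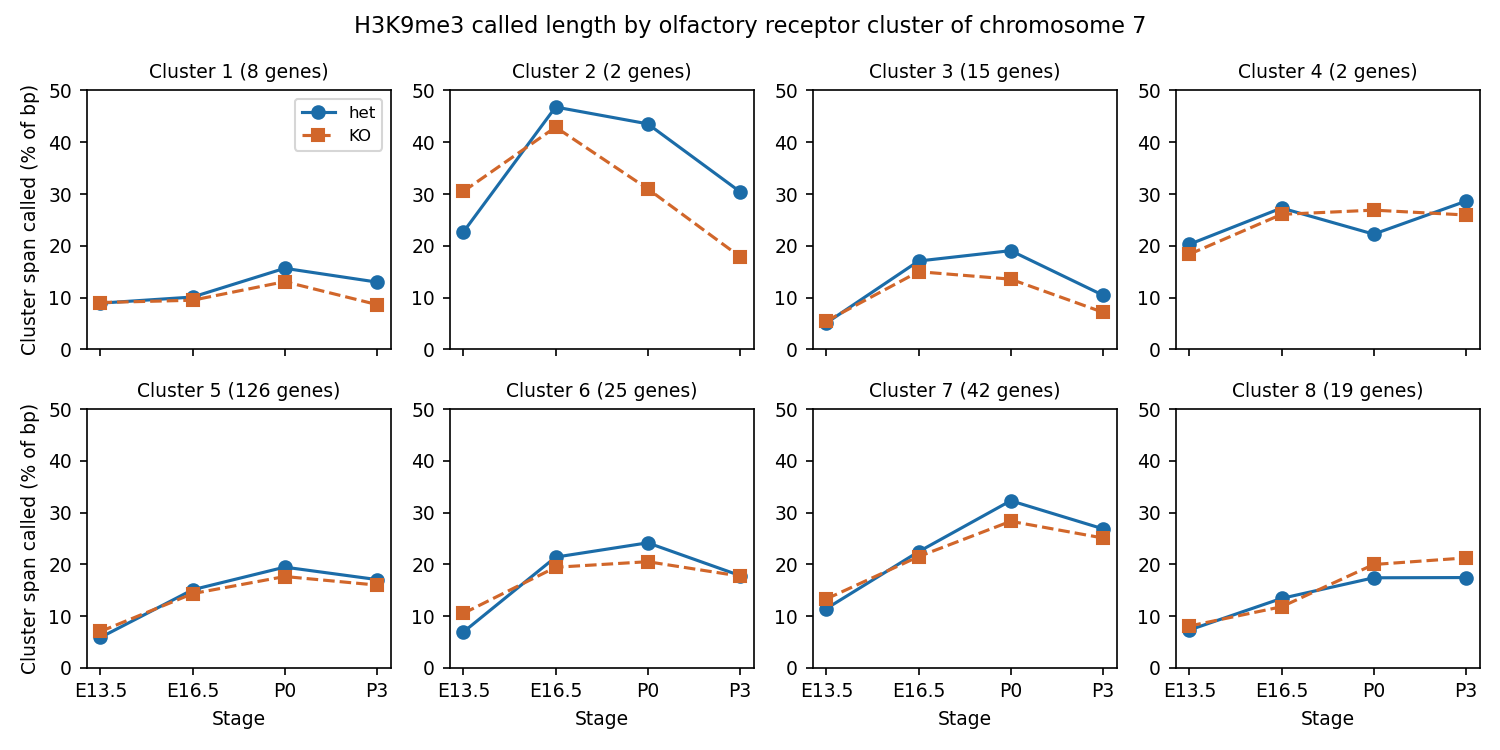
Percent of each cluster's span that was called, by stage, in het (circles) and KO (squares). Each point is 1 list. Cluster 2 is highest at E16.5, KO lies below het at P0 in 6 of the 8 clusters, and cluster 8 has KO above het at P0 and P3.

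Between genotypes, the clusters had less called H3K9me3 in KO than in het after birth, while the rest of the chromosome had more. The KO to het ratio of called length over the clusters was 1.19 and 0.936 in the embryo (E13.5, E16.5) and 0.895 and 0.944 after birth (P0, P3). Over chromosome 7 outside the clusters it was 1.15, 0.947, 1.07 and 1.10, and over all chromosomes 1.14, 0.923, 1.04 and 1.09. The clusters were thus on the same side of 1 as the rest at E13.5 and E16.5 and on the other side at P0 and P3. The KO lists of P0 and P3 are longer as a whole than the het lists, and the part of this in the ratios was not tested. Over the members with their 5 kb flanks the ratio was close to 1 at P0 (0.977) and P3 (1.04). Olfactory receptor genes of chromosome 2, with flanks, were close to this, at 1.001 and 1.03. Those of all other chromosomes together had 1.05 and 1.08. Cluster spans on other chromosomes were not measured, so the lower KO length cannot be called particular to chromosome 7. Within the chromosome 7 clusters the ratio differed by place. In the cluster sequence farther than 5 kb from any member it was 0.844 at P0 and 0.877 at P3, so the lower KO length lay mainly between the genes. Over the 55 pseudogenes with flanks it was 0.826 at P0 and 0.877 at P3.

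By cluster, the KO to het ratio was below 1 in all 8 clusters at E16.5 (0.879 to 0.958), in 6 of 8 at P0 and in 7 of 8 at P3. It was 0.835 and 0.666 in cluster 1 at P0 and P3, 0.712 and 0.588 in cluster 2, and 0.711 and 0.684 in cluster 3. Clusters 5 (0.907 and 0.937), 6 (0.849 and 0.994) and 7 (0.877 and 0.934) lay nearer to 1. Cluster 4 had 1.21 at P0 and 0.907 at P3. Cluster 8, the array nearest the telomere, had 1.15 at P0 and 1.22 at P3 after 0.880 at E16.5. Within the same lists, KO was thus above het in 1 array and below it in others.

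Of all members, 18 were at least 2-fold and 1 kb higher in het at P0 (3.68% of all genes) and 15 were so in KO (11.1%). At P3 the numbers were 20 in het (4.61%) and 20 in KO (9.21%). At E13.5 they were 6 in het (3.02%) and 15 in KO (9.87%), and at E16.5 they were 15 in het (3.65%) and 7 in KO (2.13%). With equal numbers of peaks in each list, the order at E16.5 turned, with 9 in het and 13 in KO. By a count added after the values were seen, the members higher in het at both P0 and P3 numbered 12, or 5.02% of members against 1.39% of all genes. Those higher in KO at both numbered 4, or 1.67% against 2.95%. The 12 were Olfr294, Olfr78, Olfr568, Olfr569, Olfr585, Olfr608, Olfr69, Olfr68, Olfr641, Olfr648, Olfr478 and Olfr502, and the 4 were Olfr596, Olfr622, Olfr66 and Olfr535. Some are neighbours that share a peak, such as Olfr568 with Olfr569 and Olfr69 with Olfr68, so they are not separate events. By any difference in length, 34 members had more in het at both stages, 55 had more in KO at both and 50 changed direction. A further 100 were equal at one stage or both. This count was not made over all genes, and the KO lists are longer as a whole, so it is not read as a result about the members.

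Olfr502, a class II gene of cluster 7 (chr7:108523004-108523948), had the largest difference in het's favour. Its window was not called at E13.5, had 3.53 kb in the E16.5 het list and 0 in its KO counterpart, 10.9 kb in het and 0.658 kb in KO in the P0 lists, and 8.08 kb in het and 0 in KO at P3. It lay in the longest cluster peak of the P0 het list, chr7:108506257-108530522, of 24.3 kb. The KO list of P0 called 10.7 kb of that stretch, and at P3 the values were 21.0 kb in het and 7.71 kb in KO. The start region of the gene, shown above, was inside the part called in het alone.

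Next by the smaller of the differences at P0 and P3 were Olfr648, Olfr641, Olfr294 and Olfr569. Olfr294 (cluster 3) and Olfr569 (cluster 5) were called after birth in het and not in KO. Olfr294 had 4.29 kb in P0 het, 5.08 kb in P3 het and 0 in the other 6 lists. Olfr569 had 1.30 kb in E16.5 het, 4.94 kb in P0 het, 4.04 kb in P3 het and 0 in the other lists. Olfr648 and Olfr641 were called in both genotypes at E16.5 and lower in KO afterwards. Olfr648 had 1.89 kb in het and 2.27 kb in KO in the E16.5 lists, then 5.59 kb in het and 0 in KO at P0 and 5.81 kb and 0 at P3. Olfr641 had 6.78 and 4.35 kb in the E16.5 lists, 6.64 and 1.63 kb in the P0 lists, and 6.55 and 1.93 kb in the P3 lists.

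Of the members with more in KO at both postnatal stages, Olfr622 and Olfr619 had the largest differences by the same ranking. Olfr622 (cluster 5) was not called in the embryo and had 0.289 kb in het and 3.54 kb in KO in the P0 lists and 0.093 and 4.99 kb in the P3 lists. Olfr619, in the same array, had 11.1 kb in het and 9.28 kb in KO in the E16.5 lists, then 4.85 and 8.09 kb in the P0 lists and 2.55 and 8.43 kb in the P3 lists. In Olfr619 the KO length stayed near its E16.5 value while the het length was lower after birth. Olfr609 had 4.30 and 6.14 kb in the P0 lists and 5.41 and 7.53 kb in the P3 lists. In cluster 8, Olfr531 had 0 and 1.52 kb in the P0 lists and 1.60 and 3.05 kb in the P3 lists, and no member of that cluster met the 2-fold rule in het at either stage.

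**Figure D4:**
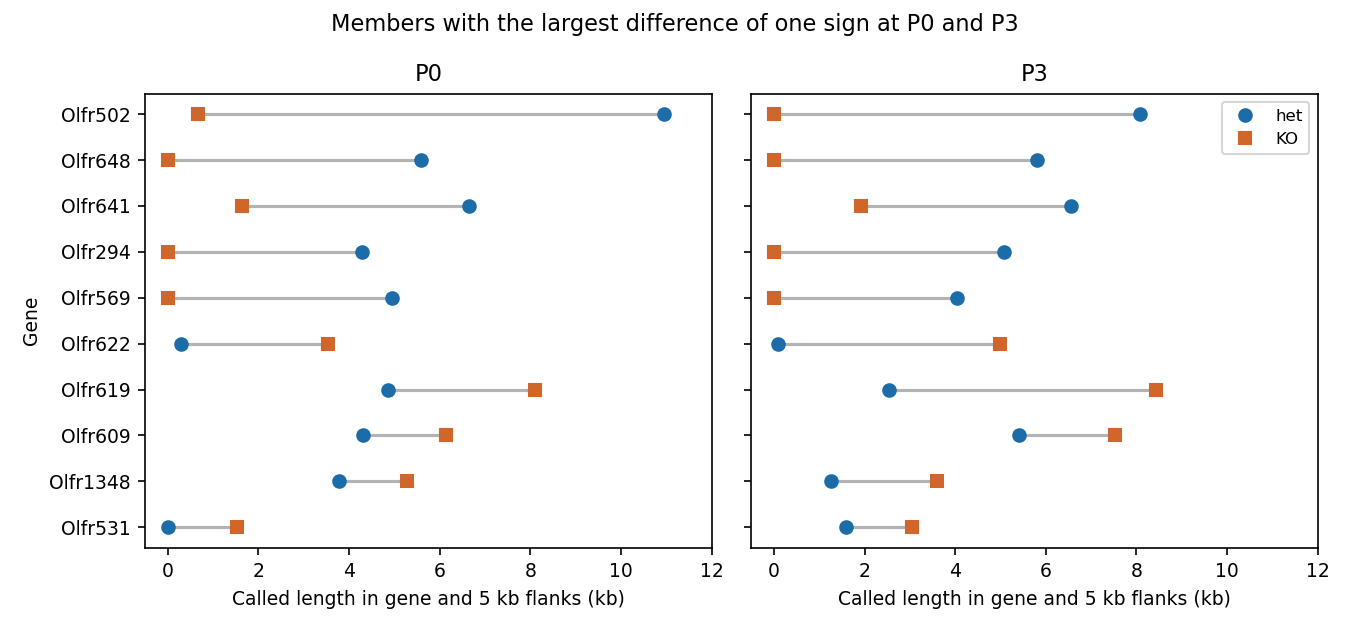
Called length in the gene and its 5 kb flanks, in kb, at P0 (left) and P3 (right) for the 5 members with the largest difference of the same sign in each direction at both stages. Circles are het and squares are KO, each from 1 list. Olfr502 spans 10.9 against 0.658 kb in the P0 lists, and Olfr622 to Olfr531 have KO to the right of het.

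At E13.5 and E16.5 the consistent differences between genotypes were small. By any difference, 12 members had more in het at both embryonic stages, 17 had more in KO at both and 171 were equal at one of them or both. The other 39 changed direction. This count was not made over all genes either. Olfr693, the first gene of cluster 6, ranked first among those with more in KO by the smaller of its differences, with 0 and 1.00 kb in the E13.5 lists and 3.27 and 4.69 kb in the E16.5 lists. In the embryo Olfr553 was called in het alone, with 1.00 kb in the earlier list and 2.25 kb in the later one, and was called in both genotypes at P0 (2.06 and 1.26 kb).

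Peaks without any counterpart in the other genotype were mostly short, and the long ones after birth were more often in het. In the clusters, 48 of 309 peaks of the P0 het list (15.5%, 95% Wilson interval 11.9% to 19.99%) and 38 of 298 of the P0 KO list (12.8%, 9.43% to 17.0%) touched no peak of the other list. These intervals cover counting error only. Of cluster peaks of at least 3 kb, 14 of 148 in P0 het had no counterpart (9.46%, 5.72% to 15.3%), against 2 of 133 in P0 KO (1.504%, 0.413% to 5.32%). At P3 the numbers were 12 of 127 in het (9.45%, 5.49% to 15.8%) and 1 of 114 in KO (0.877%, 0.155% to 4.80%). Elsewhere on chromosome 7 such peaks made up 4.27% in het and 1.24% in KO at P0, and 4.88% and 1.94% at P3. With the longer 50% of each list, chosen after seeing the data, the numbers were 25 in het and 15 in KO at P0, and 26 and 12 at P3. There counterparts were sought only among the peaks kept. Of the 14 peaks at P0, 11 were also called in het and not in KO at P3, and all 12 of the P3 peaks were called at P0 in het alone.

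The longest of these lay between genes. It spanned chr7:103004569-103017387 at P0 (12.8 kb) and chr7:103004586-103017628 at P3 (13.0 kb), with no member within 5 kb. In that stretch the KO lists had 0 at P0 and at P3 and 0.340 kb in the E16.5 KO list, where the het list had 1.00 kb. Next in length was chr7:102880053-102887149 (7.10 kb), beside Olfr568 and Olfr569. Further P0 peaks lay by Olfr557 (6.22 kb), Olfr648 (5.59 kb), Olfr69 with Olfr68 (4.59 kb), Olfr78 (4.32 kb) and Olfr294 (4.29 kb). The longest stretch called in KO alone was chr7:103267397-103274245 at P0 (6.85 kb), also without a member within 5 kb, of which 1.00 kb was called in KO at P3.

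Along cluster 5 the lower KO length was concentrated in a few places. The 100 kb window that begins 500 kb from the first gene had 35.6% called in het and 14.2% in KO at P0, and 28.0% and 11.2% at P3. It held the 12.8 kb stretch. The window that begins 200 kb from the first gene had 12.5% and 1.00% at P0, and the one at 2000 kb had 33.2% and 16.6% at P3. The window at 1100 kb went the other way, with 38.3% and 43.6% at P0 and 30.9% and 42.8% at P3. Windows of 100 kb were laid from the first gene of each cluster, and end windows under 50 kb were left out, which removed cluster 4. Over the 56 windows of the other 7 clusters, KO was higher in 46 at E13.5, and lower in 38 and higher in 18 at E16.5. After birth it was lower in 33 and higher in 23 at P0, and lower in 29 and higher in 27 at P3. The median difference at P0 was small, at -0.71 percentage points, with a range from -21.4 to 5.97.

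**Figure D5:**
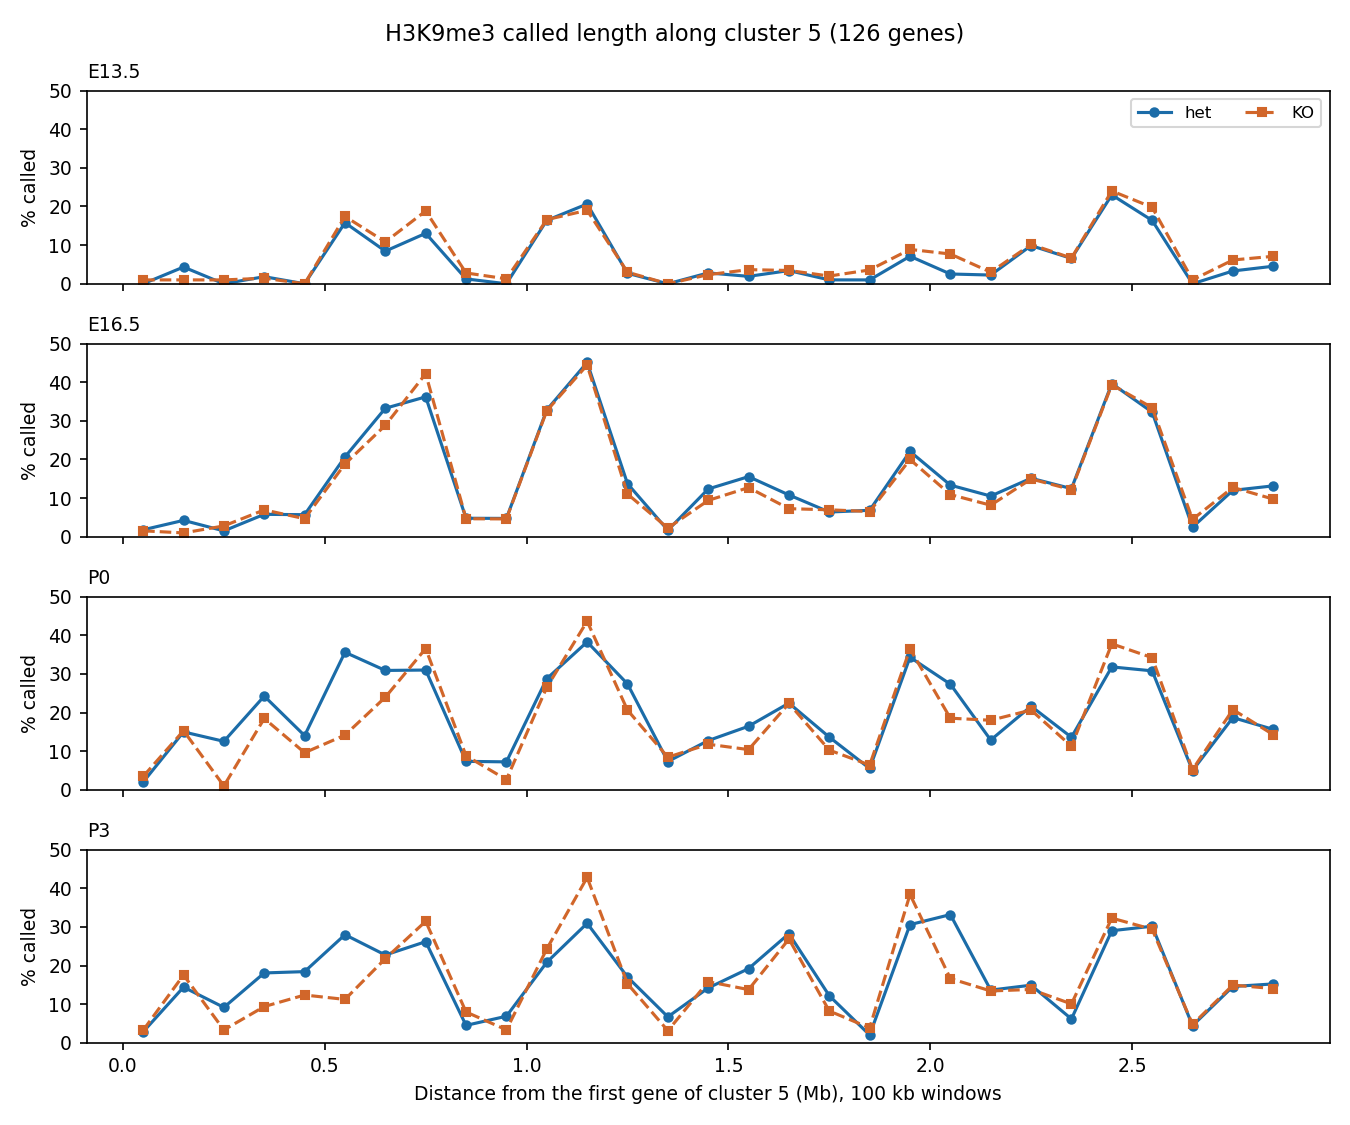
Percent of base pairs called in 100 kb windows along cluster 5, against the distance from its first gene, for het (circles) and KO (squares) at each stage. Het and KO nearly overlie each other at E16.5 and part at P0 and P3 around 0.5 Mb, where het has 35.6% and KO 14.2% at P0.

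The beta-globin genes sit inside cluster 5 between olfactory receptor genes. Of the 5 Hbb genes placed there, Hbb-bt and Hbb-bs, the adult globin genes, had called base pairs in their 5 kb flanks, and only at P0 and P3. Their bodies were not called in any list but P0 KO, with 0.108 kb in Hbb-bt and 0.239 kb in Hbb-bs. With flanks, Hbb-bs had 2.63 kb in het and 1.00 kb in KO in the P0 lists and 3.69 kb and 0 at P3. Of the neighbouring members, Olfr69 had 4.59 kb in P0 het, 2.29 kb in P3 het and 0 in KO, and Olfr68 had 2.86 kb and 1.29 kb in the same het lists and 0 in KO. Olfr67, between them and the globin genes, was called in both genotypes, with 2.47 kb in het and 2.85 kb in KO in the P0 lists. On the other side Olfr66 had 0 in het and 1.00 kb in KO in the P0 lists and 0 and 1.35 kb in the P3 lists, and Olfr64 and Olfr65 were called in no list. Olfr64, Olfr65, Olfr66, Olfr67, Olfr68 and Olfr69 were chosen for their place beside the globin genes after their values were seen. Of the 29 other protein-coding genes inside clusters 5 and 8, 15 were called in P0 het (51.7%, against 46.6% of all genes) and 13 in P0 KO (44.8% against 51.6%), near the shares over all genes. Trim30d, of the tripartite motif family, had 15.1 kb in het and 9.29 kb in KO in the P0 lists. In the P3 lists it had 20.5 and 10.5 kb. The nearby Trim30a and Trim30c went the other way. In the P0 lists Trim30a had 17.2 kb in het and 18.4 kb in KO, and Trim30c had 15.5 and 16.8 kb. At P3 Trim30c had 13.9 kb in het and 18.3 kb in KO, and Trim30a was also higher in KO.

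Genes that act with the receptors or on the mark itself were called about as often as all genes at P0. Of 23 genes of olfactory signalling and receptor choice, 13 were called in body or flanks in each P0 list (56.5%, against 46.6% of all genes in het and 51.6% in KO) and 5 were called in no list (32% of all genes). At P0, 3 met the 2-fold rule in KO (13.0% against 11.1% of all genes) and 0 in het (3.68% of all genes). At P3 another 3 did so in KO (Ric8b, Ebf2 and Cnga2; 9.21% of all genes) and 0 in het (4.61%). Gnal, the olfactory G protein subunit, had 7.05 kb in het and 16.8 kb in KO in the P0 lists, and Ebf3, of the EBF transcription factors, had 6.48 and 14.3 kb. The third at P0 was Rtp2, a receptor transporting protein, with 1.00 and 2.28 kb. Omp, the marker protein of mature olfactory neurons, and Cnga4, a subunit of the olfactory ion channel, were called in no list. Of 22 genes of H3K9 methylation and heterochromatin, 11 were called in P0 het (46.6% of all genes) and 10 in P0 KO (51.6%), with 1 higher in het and 0 in KO by the 2-fold rule. That gene was Morc1 itself, with 5.39 kb in het and 0 in KO at P0, and it met the rule in het at P3 too.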

How the data were processed

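H3K9me3 and histone H3 were profiled by ChIP-seq in 32 samples (16 with each antibody, 2 per group) of testicular germ cells. The labels' protocols describe formaldehyde fixation, sonication and an ultralow input library kit. The submitters' processing notes name mm10, which is GRCm38, and bcl2fastq 2.20, cutadapt 1.18, Bowtie2 2.3.4.1, deepTools 3.5.0 and HOMER 4.10, without their roles. The authors deposited 8 lists of H3K9me3 peaks, each with a chromosome, a start and an end and no signal, score or count. Each list names a stage and genotype and no replicate, and was taken as 1 pooled list per group. The peak caller, its threshold and the use of the H3 samples are not given in the sources used here. Depth per sample is therefore unknown. Peaks were read as 0-based, and printed coordinates are 1-based. The commonest peak length was 1001 bp, so called length is coarse below about that size.

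Base pairs in peaks were counted over gene bodies, 5 kb flanks and cluster spans with Python 3.11.15 and numpy 2.4.6, and the code was tested on simulated intervals. Overlapping windows of neighbouring members were merged before sums, but not in values of single members. A member was called different when its called length was at least 2-fold and 1 kb higher in 1 genotype. No test between groups was made, since no group has replicates here. The 2 samples of a group are not described as separate animals. Gene bodies, names and start regions came from the RefSeq tables of GRCm38.p6. The table places 108 protein-coding genes of chromosomes 1 to 19 and X before 3 Mb, among them 2 Hbb genes, and they were kept in the counts over all genes. Class I and II were taken from MOR family numbers (class I below 100), because the planned symbols are not in the table. That choice followed a look at the table. By these numbers cluster 5 also held 3 class II members, and the class of single members was not checked otherwise.

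Genes to name were picked by rules. The rules took the 10 members with the most called length summed over the lists. They also took the 5 per direction with the same sign of het minus KO at P0 and P3, ranked by the smaller difference. The same was done for E13.5 and E16.5. Further picks were the first, last and most called member of each cluster, and Olfr2, Olfr16, Olfr17, Olfr78 and Olfr558. Genes of 3 listed groups, other genes inside a cluster, and the longest cluster peak of each list were added. Some of these are summarised only, and others are not named in the text. The members and lists were chosen with earlier results of these data known. Alternatives were the longer 50% of each list, equal peak numbers, leaving out peaks of the commonest length, other flanks, other gaps and other thresholds.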

Additional observations from a re-analysis of the deposited data

Results flagged for a closer look

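The direction of the genotype difference changed between stages, in 1 list per group and so without a test. Over the gene clusters, KO had 80.7 kb more called than het at E13.5. It fell short of het at the later stages, with a difference (KO minus het) of -62.3 kb in the E16.5 lists, -131.8 kb in those of P0 and -58.6 kb in those of P3. Over the member genes with 5 kb flanks, KO had 29.6 kb more at E13.5, and the difference was -42.8 kb in the E16.5 lists and -12.0 kb in the P0 lists. At P3 it was 17.8 kb, of the same sign as at E13.5. The sign at P0 turned with the longer 50% of each list and with equal peak numbers. None of these differences between stages was tested.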

How the results depend on the processing

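No paired analysis was possible because each group has 1 pooled list with no replicate number, and leaving out a replicate could not be run for the same reason. The KO to het ratio over all clusters stayed on its side of 1 at each stage under all 6 alternatives (0.871 to 1.20), without cluster 5 included, and the ratio outside them did under all 3 (0.941 to 1.15). The ratio over members with flanks crossed 1 at P0 with the longer 50% of each list (1.03) and with equal peak numbers (1.00051), and at P3 with equal peak numbers (0.997) and with 20 kb flanks (0.975). Called shares have no replicate spread to be held against. They moved by a factor of at most 1.40 for bodies, 1.32 for flanks and 1.30 for all clusters together under the alternatives run, those without Olfr687 or with genes of at most 2 kb, chosen after seeing the data, included. Single clusters moved more. With the longer 50%, cluster 1 had 5.81% in het and 6.01% in KO at E13.5, 4.54% in E16.5 KO, 9.38% and 6.89% at P0 and 2.35% in P3 KO, cluster 3 had 4.69% in P3 KO and cluster 8 had 5.18% in E13.5 KO. With equal peak numbers, cluster 1 had 8.65% in P0 KO and 3.93% in P3 KO.

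Counts moved more. With 2 kb flanks, 36 members in het and 42 in KO were called at E13.5. With 20 kb flanks the numbers were 149 and 166 at E13.5, 220 and 209 at E16.5, 221 and 221 at P0, and 219 and 220 at P3. With the longer 50% of each list, 80 in het and 76 in KO were called at E16.5. Members past the 2-fold rule in het at E13.5 numbered 2 with the longer 50%, 10 with 20 kb flanks and 0 with a 2 kb minimum, and in KO 29 with 20 kb flanks and 4 with a 2 kb minimum. At E16.5, equal peak numbers gave 9 in het and 13 in KO, so that the order of the genotypes turned, 2 kb flanks gave 8 and 2, and a 2 kb minimum gave 3 and 1. At P0, 20 kb flanks gave 32 in het and a 2 kb minimum gave 6 in KO. At P3, 2 kb flanks gave 12 in het and a 2 kb minimum gave 12 in KO. Members past the rule at both P0 and P3 numbered 21 in het with 20 kb flanks, and in KO 2 with equal peak numbers and 1 with a 2 kb minimum; het had more than KO under all 7 alternatives added for this count. Cluster peaks of at least 3 kb without a counterpart were more in het than in KO under all 5 alternatives, chosen after seeing the data. With the longer 50% they numbered 25 in het and 15 in KO at P0 and 26 and 12 at P3, and with equal peak numbers 24 and 9, and 22 and 5. With a 2 kb minimum they were 24 and 4, and 21 and 5, and with a 5 kb minimum 5 and 1, and 3 and 0. Without peaks of the commonest length KO had 4 at P0 and 2 at P3. In the alternatives that dropped peaks, counterparts were sought only among the peaks kept, so dropped ones no longer counted. When a shared cluster peak had to be covered over at least 50% of its length, the shared share was 89.1% in E16.5 KO, 78.3% in P0 het, 74.2% in P3 het and 77.2% in P3 KO. The cause of these changes was not tested. For the 5 members per direction named for their differences at P0 and P3, no difference at these stages changed sign. That of Olfr1348 at P3 was 0 with the longer 50% and with equal peak numbers. Other named members were not checked in this way. Unknown depth limits every called length, and an uncalled member may carry the mark below the authors' threshold.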
